A study of Mus musculus with 16 samples.

Results

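This account describes 10 genes of inflammatory signalling in sorted mouse neutrophils: the cytokine genes Il1b, Il1a and Tnf, the chemokine genes Cxcl2, Ccl3, Ccl4, Ccl6 and Ccl9, the interleukin-1 receptor antagonist gene Il1rn, and the NF-kB inhibitor gene Nfkbia. They were chosen by name, as a fixed list, out of 49585 gene identifiers in the deposited count tables, and all 10 were found. The study sequenced RNA of neutrophils that were sorted by flow cytometry from bones of C57BL/6 mice aged 8 to 12 weeks, in 16 libraries. The P2KO group (4 libraries) is labelled Vav:cre-PHD2f/f, a conditional deletion of the oxygen sensor PHD2. The P2H2KO group (4 libraries) is labelled Vav:cre-PHD2/HIF2ff/ff, a combined deletion of PHD2 and of the transcription factor HIF2. Each line has its own control group labelled wild type, P2WT and P2H2WT, with 4 libraries each. All 4 groups share the strain, tissue and age range. Vav-driven Cre recombinase acts in blood-forming cells in general, so the deletion is not limited to neutrophils. The labels do not say whether each library is 1 animal, and p-values measure the spread between these libraries. Titles end in the letter m or f (10 and 6 libraries), and the labels do not explain the letters.

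PHD2 is an enzyme that marks hypoxia-inducible factors (HIF) for degradation when oxygen is present, so its loss stabilises HIF proteins. Interleukin-1 beta and TNF are early cytokines of infection and injury, and NF-kB transcription factors drive both genes in activated myeloid cells. Chemokines are secreted proteins that attract leukocytes. Neutrophils in the marrow are largely resting cells, and after activation they are known to transcribe Il1b, Tnf, Cxcl2, Ccl3 and Ccl4 strongly.

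The libraries held between 23450746 and 28601284 counted reads, and the 10 genes together took 0.0444% to 0.0760% of them. Levels are given in CPM, the read count of a gene scaled to a common library size. The neutrophil markers Ly6g, S100a8 and S100a9 were detected in every library, with Ly6g between 84.3 and 270 CPM. Markers of other bone cells were present as well: the summed level of 8 erythroid genes was 19303 to 41122 CPM, that of 10 basophil, eosinophil and mast cell genes 2524 to 5357 CPM, and that of 20 monocyte and macrophage genes 2724 to 4618 CPM. The summed levels of 8 B cell genes and of 10 T and NK cell genes were 194 to 673 and 66.9 to 101 CPM. Counts over whole genes do not check the deletions, since the deleted exons are not given in the sources used here. Egln1, which encodes PHD2, had 43.2 to 58.4 CPM in P2KO and 45.9 to 51.3 CPM in P2WT. Epas1, which encodes HIF2, had 3.42 to 8.39 CPM in P2H2KO and 2.55 to 4.97 CPM in P2H2WT, so the group names used here are those of the labels.

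Stretches of 140 bases just before the start site are shown for 6 of the genes, because Il1b and Il1rn varied together across libraries, Ccl6 and Ccl9 gave the smallest p-values in the PHD2 line, and Cxcl2 and Nfkbia hold the same NF-kB motif. They are RefSeq sequences of build GRCm38.p6, read in the direction of the gene, and capitals mark matches to the motifs named after them. Il1rn has further start sites downstream, and the stretch before the most upstream is shown. The RefSeq starts used for Cxcl2 and Il1rn lie slightly inside the gene spans given below, so these stretches run into those spans.
Il1b: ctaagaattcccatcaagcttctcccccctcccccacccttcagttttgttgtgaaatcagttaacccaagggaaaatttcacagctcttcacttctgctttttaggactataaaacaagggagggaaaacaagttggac
Il1rn: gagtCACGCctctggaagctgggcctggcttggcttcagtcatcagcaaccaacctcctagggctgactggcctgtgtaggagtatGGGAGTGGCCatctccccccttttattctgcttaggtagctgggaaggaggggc
Cxcl2: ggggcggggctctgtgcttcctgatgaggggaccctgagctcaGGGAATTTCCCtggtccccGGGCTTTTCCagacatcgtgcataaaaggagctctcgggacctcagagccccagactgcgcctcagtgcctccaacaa
Nfkbia: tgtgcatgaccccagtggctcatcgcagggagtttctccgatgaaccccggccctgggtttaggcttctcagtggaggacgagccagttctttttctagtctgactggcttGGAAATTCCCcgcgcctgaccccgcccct
Ccl9: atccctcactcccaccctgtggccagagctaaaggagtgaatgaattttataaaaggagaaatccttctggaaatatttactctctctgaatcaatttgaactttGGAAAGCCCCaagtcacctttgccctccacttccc
Ccl6: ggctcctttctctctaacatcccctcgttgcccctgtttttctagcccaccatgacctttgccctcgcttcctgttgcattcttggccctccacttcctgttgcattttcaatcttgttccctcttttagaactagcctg
Their positions are chr2:129371140-129371279, minus strand (Il1b), chr2:24336720-24336859, plus strand (Il1rn), chr5:90903759-90903898, plus strand (Cxcl2), chr12:55492648-55492787, minus strand (Nfkbia), chr11:83578637-83578776, minus strand (Ccl9) and chr11:83593088-83593227, minus strand (Ccl6).

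RefSeq promoter windows of 300 bases (250 before the start and 50 after it) were at hand for 9 of the 10 genes, 11 windows in all, since Il1rn has 3. Motifs were searched on both strands. The loose form of the NF-kB motif is GGG, any 5 bases and CC. With AATTT in the middle it was in 2 of the 11 windows, those of Cxcl2 and Nfkbia, and in 0.0883% of all 32851 promoter windows. In Cxcl2 it began 97 bases before the start and overlapped a loose match on the other strand, and a further loose match followed it. In Nfkbia it lay on the opposite strand, from 29 bases before the start. The loose form was in 7 of 11 windows and in 50.8% of all windows, while those with ACTTT or GATTT in the middle were in 0 of 11. Il1rn gave 3 of these 7 windows, and 2 of its windows overlap and hold the same match, so that site is counted more than once. Of the core letters bound by HIF, ACGTG was in 0 of 11 windows and in 19.6% of all windows. GCGTG was in 2 of 11, those of Cxcl2 and Il1rn, and in 32.4% of all windows. These matches describe letters in a window, and binding was not measured.

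Levels were compared between genes per kilobase of exon, since longer genes collect more reads. The length counted all annotated exon bases of a gene, not those of the transcripts expressed, and the order of genes can depend on this. Ccl6 stood highest with 143 ± 28.1 CPM per kilobase (SD, 16 libraries), followed by Nfkbia with 65.1 ± 10.4 and Ccl9 with 42.3 ± 12.4. Il1rn had 10.5 ± 3.55, Il1b 6.65 ± 3.80, Tnf 4.71 ± 0.700 and Ccl3 3.37 ± 1.24 CPM per kilobase. Ccl4 had 1.31 ± 0.421, Cxcl2 0.846 ± 0.660 and Il1a 0.379 ± 0.124 CPM per kilobase. The chemokine genes thus held both ends of the order, with Ccl6 and Ccl9 near the top and Cxcl2 and Ccl4 near the bottom. Neighbouring pairs from Il1rn down to Ccl3 differed by less than their joint SD, as did Ccl4 and Cxcl2, and Cxcl2 and Il1a. The genes also differed in how much a single gene varied. The highest library exceeded the lowest 14.1-fold for Cxcl2, 7.12-fold for Il1b, 4.70-fold for Il1a, 3.84-fold for Ccl3, 3.15-fold for Il1rn and 2.90-fold for Ccl9. It was 2.62-fold for Ccl4, 1.99-fold for Ccl6, 1.82-fold for Tnf and 1.78-fold for Nfkbia. Il1a rested on 7 to 33 reads a library and Ccl4 on 14 to 34, so part of their spread is counting error.

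**Figure D1:**
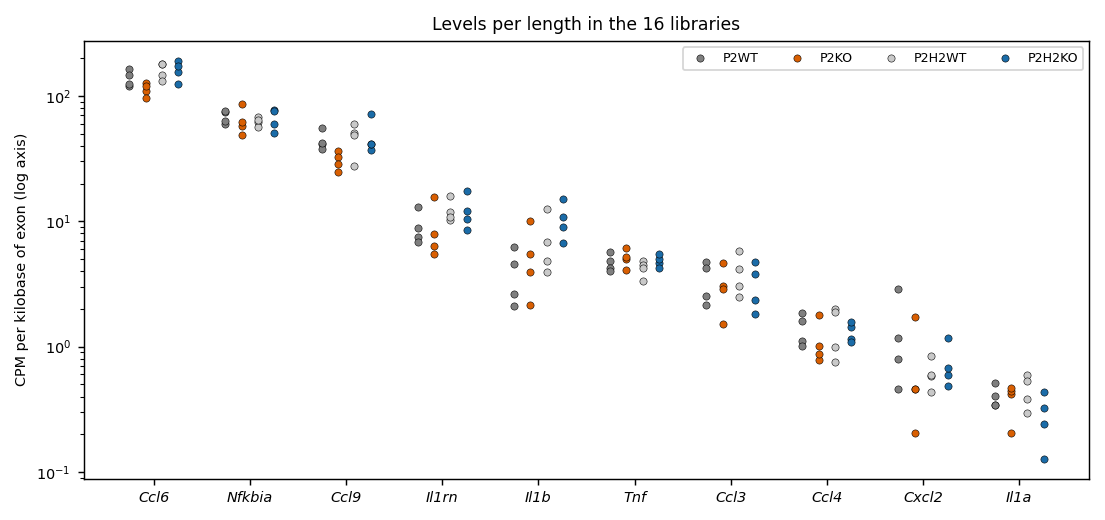
Level of each gene in CPM per kilobase of exon (log axis), 1 point per library, coloured by group, with genes ordered by their mean over the 16 libraries. Ccl6, Nfkbia and Ccl9 lie above the other genes in every library, and the points of the 4 groups overlap within nearly every gene.

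Il1b encodes interleukin-1 beta, a secreted cytokine that is made as an inactive precursor and cut by caspase-1. The gene lies on chromosome 2 (129364570 to 129371139, minus strand, GRCm38), and its exons overlap the antisense gene Il1bos. The strand setting of the counting is not given, so its reads are uncertain where the genes overlap. Its level was 7.51, 10.5, 19.0 and 4.11 CPM in P2KO replicates 1, 5, 6 and 9, and 8.64, 4.004, 4.98 and 11.97 CPM in P2WT replicates 3, 4, 7 and 10. In the PHD2/HIF2 line it was 12.8, 20.5, 17.2 and 28.5 CPM in P2H2KO replicates 11, 12, 15 and 17, and 7.52, 12.99, 9.13 and 23.7 CPM in P2H2WT replicates 13, 14, 16 and 18. P2KO replicate 6 and P2H2WT replicate 18 stood well above their groups, and the deficient and control values overlapped in both lines. The group means were 10.3 ± 6.38 CPM in P2KO and 7.40 ± 3.64 in P2WT (SD, n = 4), and 19.8 ± 6.62 in P2H2KO and 13.3 ± 7.29 in P2H2WT. Against its controls, Il1b had a log2 fold change of 0.48 in P2KO (SE 0.478, 95% interval -0.60 to 1.56) and of 0.57 in P2H2KO (SE 0.360, -0.24 to 1.38). The adjusted p-values (edgeR) were 0.99999 and 0.9999. Single libraries moved these values: the log2 fold change in the PHD2 line was 0.0024 without P2KO replicate 6 and 0.82 without P2WT replicate 10. In the PHD2/HIF2 line it was 0.34 without P2H2KO replicate 17 and 0.997 without P2H2WT replicate 18 (unadjusted p 0.00816, adjusted p 0.976 in edgeR).

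Il1rn encodes the secreted antagonist that occupies the interleukin-1 receptor without signalling. It lies on chromosome 2 (24336853 to 24351494, plus strand). Its level was 43.9, 35.0, 85.8 and 30.5 CPM in P2KO replicates 1, 5, 6 and 9, and 49.2, 41.2, 37.9 and 71.7 CPM in P2WT replicates 3, 4, 7 and 10. The PHD2/HIF2 line had 57.9, 46.9, 67.4 and 96.1 CPM in P2H2KO replicates 11, 12, 15 and 17, and 65.9, 56.5, 60.4 and 87.5 CPM in P2H2WT replicates 13, 14, 16 and 18. In each of the 4 groups the library with the most Il1rn was also the one with the most Il1b. The log2 fold change of Il1rn was -0.02 in the PHD2 line (SE 0.337, 95% interval -0.79 to 0.74) and -0.01 in the PHD2/HIF2 line (SE 0.214, -0.49 to 0.47). After removal of group means, log2 levels of Il1b and Il1rn correlated with r = 0.78 over the 16 libraries, the highest of the 45 pairs of these genes. All pairs share their libraries, and the value is a description. Per kilobase, Il1rn exceeded Il1b in 15 of 16 libraries, by 1.15- to 2.56-fold in P2KO, 1.96- to 3.54-fold in P2WT and 1.27- to 3.02-fold in P2H2WT. In P2H2KO the ratio was 0.790 to 1.56, and replicate 12 was the library with more Il1b than Il1rn per kilobase. In CPM that library had 46.9 for Il1rn and 20.5 for Il1b, so the order there rests on the lengths used (5535 and 1907 bases). The overlap of Il1b with Il1bos makes these ratios uncertain, as does a length that counts every annotated exon of a gene.

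Both genes varied with the content of mature neutrophil transcripts. The summed level of 9 mature neutrophil genes (Ly6g, S100a8, S100a9, Csf3r, Cxcr2, Retnlg, Mmp9, Itgam and Wfdc21) was 15130 to 37538 CPM in P2KO, 19600 to 31360 in P2WT, 22199 to 42223 in P2H2KO and 22809 to 35753 in P2H2WT. The library with the highest sum was the one with the most Il1rn and the most Il1b in 4 of 4 groups, and the library with the lowest sum had the least Il1rn in 4 of 4 groups. After removal of group means, the sum correlated with Il1rn with r = 0.98 and with Il1b with r = 0.74 over the 16 libraries, as a description. P2H2KO replicate 12 was an exception for Il1b, with 20.5 CPM at the lowest sum of its group. This was not limited to the mature list. The sum of 6 late neutrophil granule genes had r = 0.97 with Il1rn and r = 0.73 with Il1b. Nfkbia also had r = 0.73 with that sum, and r = 0.68 with the mature sum. The summed other cytokine genes had r = 0.78 with Il1b, and the summed receptor genes, which include Cxcr2, r = 0.93 with Il1rn. In P2H2KO against P2H2WT all 9 genes of the mature list had positive log2 fold changes (median 0.21), and 0 were called by edgeR. An unadjusted p under 0.05 was reached by 1 of them, and by 2.63% of all genes. The 5 early and 6 late granule genes were all positive there as well (medians 0.19 and 0.14). In bulk libraries a difference in the number of cells of a type and one in RNA per cell cannot be told apart. The part of these lists in the Il1b, Il1rn and Nfkbia values was not tested.

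**Figure D2:**
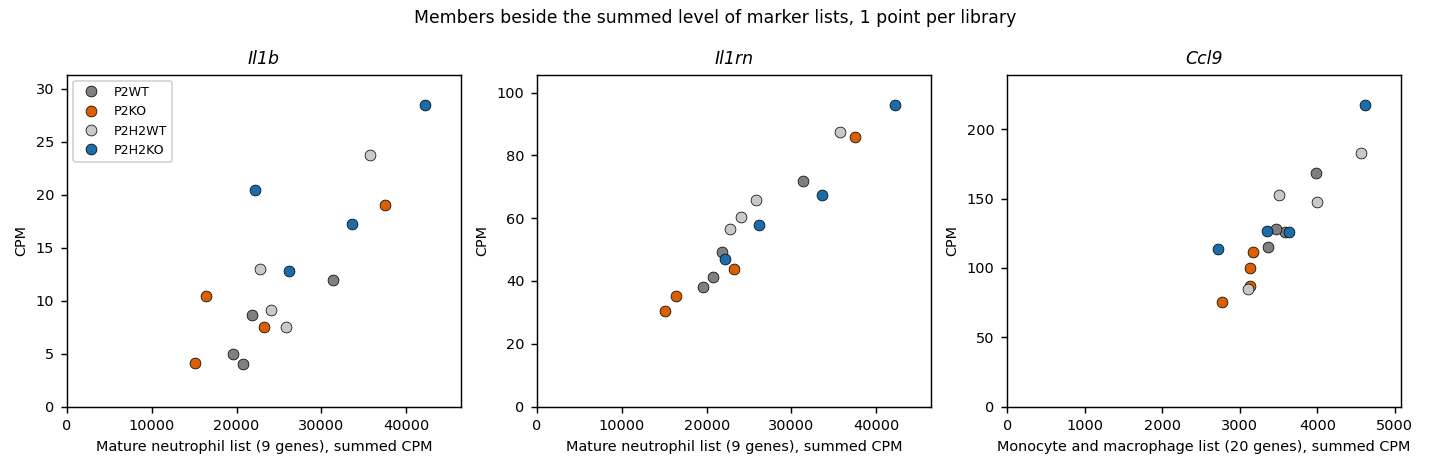
Level of Il1b, Il1rn and Ccl9 in CPM against the summed CPM of the mature neutrophil list (9 genes) or the monocyte and macrophage list (20 genes), 1 point per library, coloured by group. Il1rn rises with the mature neutrophil sum within each group, and the P2H2WT libraries lie above the others at like sums. For example, Il1rn was 56.5 CPM at a sum of 22809 in P2H2WT replicate 14, and 46.9 CPM at 22199 in P2H2KO replicate 12. Il1b scatters more widely, and Ccl9 follows the monocyte and macrophage sum.

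Il1a encodes interleukin-1 alpha, which signals through the same receptor as interleukin-1 beta. It was near the detection limit in every group, at 0.405 to 0.921 CPM in P2KO and 0.672 to 1.01 in P2WT, and at 0.251 to 0.857 in P2H2KO and 0.580 to 1.18 in P2H2WT. Its log2 fold change was -0.05 in the PHD2 line and -0.70 in the PHD2/HIF2 line (SE 0.373, 95% interval -1.54 to 0.15), where it was -0.44 without P2H2KO replicate 15. Il1a shares 225 bases at 100% identity with the overlapping gene Gm14023, so its reads are uncertain. Tnf encodes tumour necrosis factor and was among the steadiest of the genes. Tnf had 6.68 to 9.999 CPM in P2KO, 6.60 to 9.35 in P2WT, 6.93 to 8.93 in P2H2KO and 5.50 to 7.95 in P2H2WT. The ranges overlapped in both lines, with log2 fold changes of 0.13 (SE 0.153, 95% interval -0.22 to 0.47) and 0.19 (SE 0.137, -0.12 to 0.50). Its within-group deviations correlated with those of Il1b with r = 0.63.

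Nfkbia encodes the inhibitor that holds NF-kB in the cytoplasm and is itself transcribed when NF-kB is active, which makes its level a common readout of the pathway. It had 78.4 to 139 CPM in P2KO and 95.6 to 122 in P2WT, and 81.4 to 124 in P2H2KO and 91.7 to 109 in P2H2WT. The P2H2WT range lay inside that of P2H2KO, and the P2WT range inside that of P2KO. The log2 fold changes were -0.08 (SE 0.173, 95% interval -0.47 to 0.31) and 0.07 (SE 0.133, -0.23 to 0.37). Of 24 further NF-kB pathway genes, all tested, 0 were called and 0 had an unadjusted p under 0.05 in either line, with median log2 fold changes of -0.04 and 0.05. The NF-kB subunit gene Rela had log2 fold changes of -0.01 and 0.06, and the feedback inhibitor gene Tnfaip3 of -0.06 and 0.02.

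**Figure D3:**
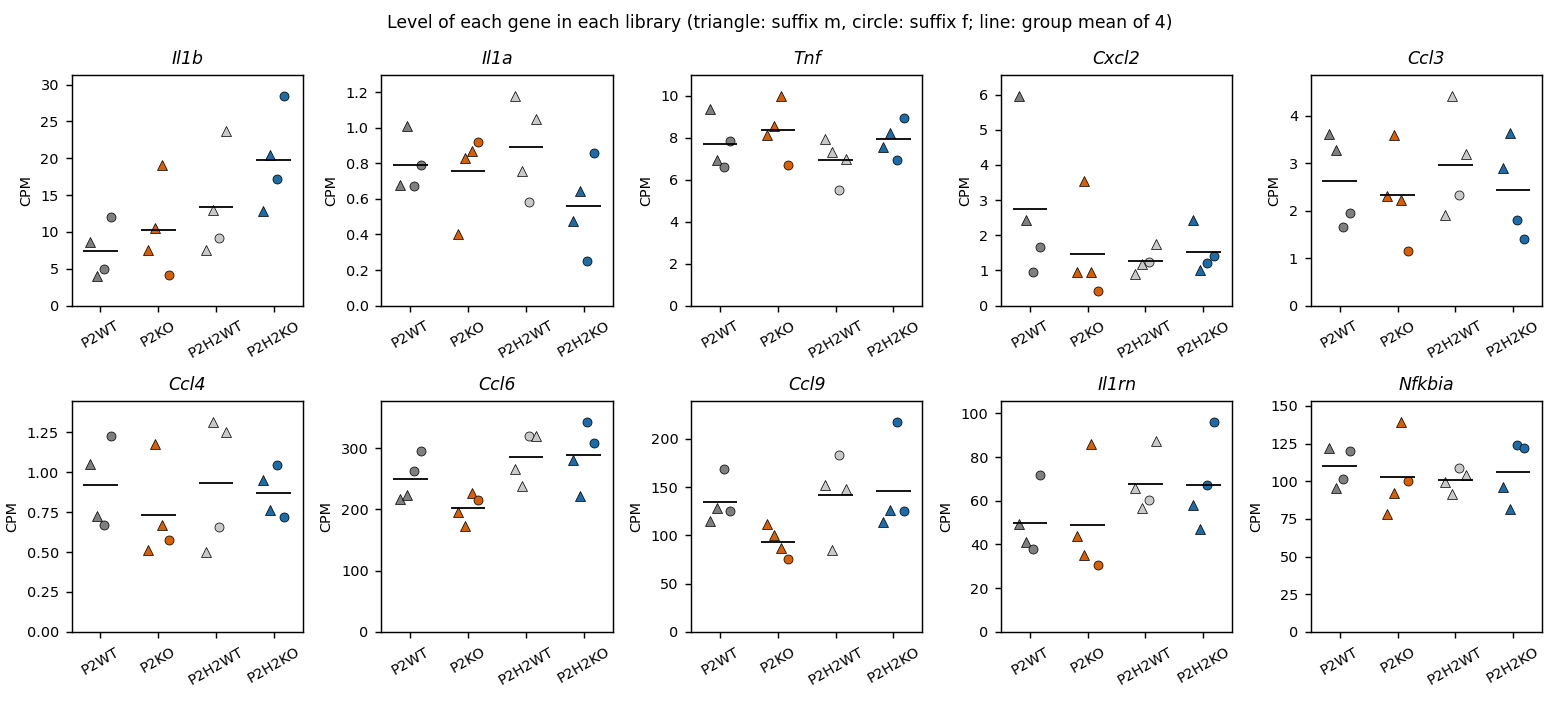
Level of each of the 10 genes in CPM by group, 1 point per library (triangle for titles ending in m, circle for f), with a line at the mean of 4 libraries. Deficient and control libraries overlap in every panel except Ccl9 in the PHD2 line, where the 4 P2KO libraries lie at 75.2 to 112 CPM and the 4 P2WT libraries at 115 to 169 CPM.

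Cxcl2 encodes a chemokine that attracts neutrophils through the receptor CXCR2. It lies on chromosome 5 (90903871 to 90905938, plus strand). Its level was 0.957, 3.56, 0.949 and 0.422 CPM in P2KO replicates 1, 5, 6 and 9, and 5.97, 2.43, 0.948 and 1.66 CPM in P2WT replicates 3, 4, 7 and 10. The PHD2/HIF2 line had 2.42, 1.01, 1.22 and 1.40 CPM in P2H2KO replicates 11, 12, 15 and 17, and 0.895, 1.195, 1.24 and 1.74 CPM in P2H2WT replicates 13, 14, 16 and 18. P2KO replicate 5 and P2WT replicate 3 stood far above the others, and the groups overlapped in both lines. The log2 fold change was -0.88 in the PHD2 line (SE 0.697, 95% interval -2.46 to 0.70) and 0.26 in the PHD2/HIF2 line (SE 0.311, -0.44 to 0.96). The value in the PHD2 line was -1.81 without P2KO replicate 5 (unadjusted p 0.0208, adjusted p 0.9999) and -0.17 without P2WT replicate 3. A stretch of 116 bases of Cxcl2 is 98.3% identical to Cxcl3, which had at most 1 read in any library. Cxcl1, the gene of a further neutrophil-attracting chemokine, had 0 reads in all 16 libraries.

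Ccl3 and Ccl4 encode the related chemokines MIP-1 alpha and MIP-1 beta, which attract monocytes and lymphocytes, and lie close together on chromosome 11. Ccl3 had 2.32, 3.59, 2.21 and 1.15 CPM in P2KO replicates 1, 5, 6 and 9, and 3.61, 3.28, 1.66 and 1.95 CPM in P2WT replicates 3, 4, 7 and 10. It had 2.90, 3.63, 1.80 and 1.40 CPM in P2H2KO replicates 11, 12, 15 and 17, and 1.90, 4.42, 2.32 and 3.19 CPM in P2H2WT replicates 13, 14, 16 and 18. Every group spanned nearly the same range. The log2 fold changes of Ccl3 were -0.16 (SE 0.359, 95% interval -0.97 to 0.65) and -0.28 (SE 0.349, -1.06 to 0.51). Ccl4 had 0.515 to 1.17 CPM in P2KO, 0.672 to 1.23 in P2WT, 0.722 to 1.04 in P2H2KO and 0.501 to 1.31 in P2H2WT. With overlapping groups, the log2 fold change of Ccl4 was -0.31 in the PHD2 line (SE 0.322) and -0.08 in the PHD2/HIF2 line (SE 0.327). Within groups, Ccl3 deviated together with Cxcl2 (r = 0.65) and Ccl4 (r = 0.54), and opposite to Ccl6 (r = -0.72), over the 16 libraries.

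Ccl6 and Ccl9 encode rodent CC chemokines that are known in myeloid cells at rest, and they lie near each other on the minus strand of chromosome 11 (83587882 to 83593087 and 83572919 to 83578636). Ccl9 had 112, 100.1, 87.0 and 75.2 CPM in P2KO replicates 1, 5, 6 and 9, and 115, 128, 169 and 126 CPM in P2WT replicates 3, 4, 7 and 10. For the PHD2/HIF2 line Ccl9 was at 113, 127, 218 and 126 CPM in P2H2KO replicates 11, 12, 15 and 17, and 153, 84.7, 183 and 148 CPM in P2H2WT replicates 13, 14, 16 and 18. Every P2KO library was below every P2WT library, with a small gap between the nearest, while the groups of the PHD2/HIF2 line overlapped. The mean was 93.5 ± 15.8 CPM in P2KO and 134 ± 23.5 in P2WT (SD, n = 4). The log2 fold change was -0.51 (SE 0.147, 95% interval -0.84 to -0.18), which is 0.701-fold, with an unadjusted p of 0.00677 in edgeR and an adjusted p of 0.99999. Of the 10 genes, 1 (Ccl9) showed this, and of all 13734 genes tested in that line 1.39% had every P2KO library below every P2WT library. In the PHD2/HIF2 line the log2 fold change of Ccl9 was 0.04 (SE 0.262, -0.55 to 0.63). The difference between the lines was -0.56 (SE 0.328, -1.26 to 0.14; unadjusted p 0.106). Parts of Ccl9 transcripts of at least 100 bases were at least 95% identical to transcripts of 9 other genes, so a share of its reads is uncertain.

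Ccl6 had 195, 172, 227 and 215 CPM in P2KO replicates 1, 5, 6 and 9, and 216, 224, 263 and 296 CPM in P2WT replicates 3, 4, 7 and 10. Ccl6 in the PHD2/HIF2 line was at 281, 223, 343 and 308 CPM in P2H2KO replicates 11, 12, 15 and 17, and 265, 238, 320.0 and 321 CPM in P2H2WT replicates 13, 14, 16 and 18. The highest P2KO library was above the lowest P2WT libraries, so the groups overlapped. The log2 fold change was -0.29 in the PHD2 line (SE 0.127, 95% interval -0.58 to -0.0034), with an unadjusted p of 0.0479 and an adjusted p of 0.99999. Leaving out 1 library gave -0.36 to -0.19, the latter without P2WT replicate 10, with unadjusted p up to 0.143 in edgeR. Other settings gave -0.30 to -0.22. P2KO held 3 m and 1 f libraries and P2WT 2 of each, and Ccl6 was lower in m over all 16 libraries (log2 difference -0.28). The PHD2/HIF2 line had a Ccl6 log2 fold change of 0.01 (SE 0.146, -0.32 to 0.34). Ccl6 and Ccl9 aligned to each other at 75.5% identity over 290 bases, short of the 95% identity used here to call reads uncertain.

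The level of Ccl9 varied with monocyte and macrophage transcripts. The 20 genes of that list, which include Csf1r, Adgre1, Ccr2 and F13a1, were all detected in every library. Their sum was 2770 to 3175 CPM in P2KO and 3366 to 3983 in P2WT, without overlap, and 19 of the 20 genes had negative log2 fold changes there (median -0.28, against 0.02 for all genes tested). In P2H2KO the sum was 2724 to 4618 CPM and in P2H2WT 3110 to 4566, and 15 of 20 log2 fold changes were negative (median -0.32). The genes of the list did not move alike there. Siglec1 (-0.71) and C1qc (-0.51) had the smallest p-values, while Csf1r averaged 394 ± 114 CPM in P2H2KO and 361 ± 84.3 in P2H2WT. The sum is weighted to abundant genes such as F13a1, Ccr2 and Csf1r (means of 870, 459 and 348 CPM over the 16 libraries). None of the 20 genes was called in either line, and 5 in the PHD2 line and 12 in the PHD2/HIF2 line had an unadjusted p under 0.05. Over all genes tested the shares at that threshold were 3.49% and 2.63%. The libraries with the highest and the lowest sum were those with the highest and the lowest Ccl9 in 4 of 4 groups, and the within-group correlation was r = 0.87 over the 16 libraries. This was not limited to that list, since Ccl9 also had r = 0.77 with the summed genes that process or release interleukin-1 or TNF, and r = 0.66 with 5 early neutrophil granule genes, sharing the highest library with each in 4 of 4 groups (the release and granule lists both hold Elane and Prtn3). Ccl6 had r = 0.56 with the monocyte and macrophage sum, below its r = 0.68 with 6 late neutrophil granule genes and r = 0.62 with the mature neutrophil genes. With the erythroid sum, within-group r was -0.70 for Ccl6 and for Nfkbia, -0.61 for Il1rn, -0.54 for Ccl9 and -0.46 for Il1b. It was -0.04 for Tnf, and positive for Il1a, Cxcl2, Ccl3 and Ccl4 (0.03 to 0.40). With the B cell sum r was -0.80 for Ccl9 and -0.61 for Ccl6. With the basophil, eosinophil and mast cell sum r was -0.50 for Ccl9 and 0.25 for Ccl6. The T and NK cell list had 9 of 10 negative log2 fold changes in the PHD2 line, led by Klrb1c with -0.75 (adjusted p 0.0688). The part of these cells in the Ccl9 and Ccl6 values was not tested.

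**Figure D4:**
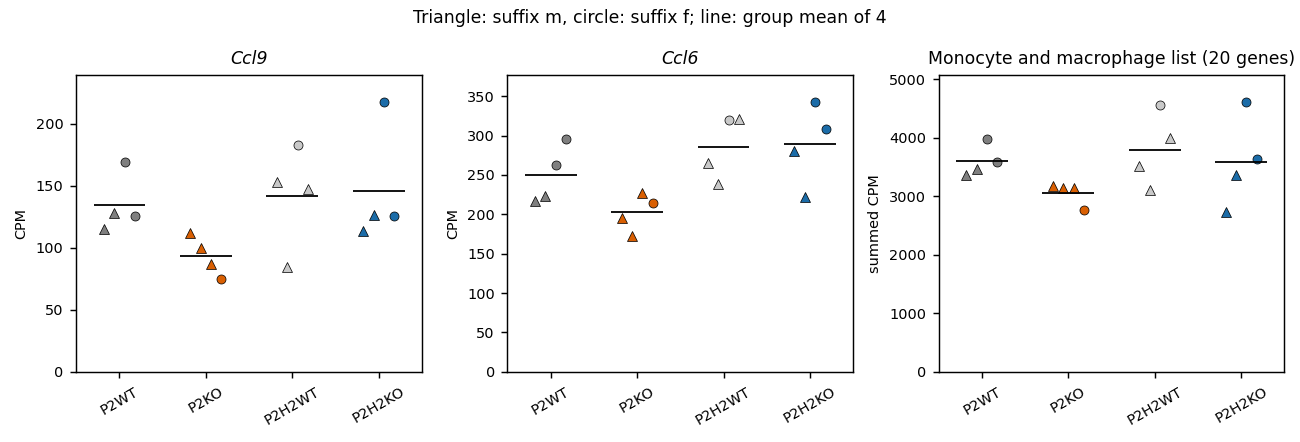
Level of Ccl9 and Ccl6 in CPM and summed CPM of the 20 monocyte and macrophage genes by group, 1 point per library (triangle m, circle f), with a line at the mean of 4. In the PHD2 line the P2KO libraries lie below the P2WT libraries for Ccl9 and for the sum (2770 to 3175 against 3366 to 3983 CPM), and for Ccl6 the groups overlap.

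All 10 genes passed the filter on low counts in each comparison, and 0 of 10 were called at an adjusted p under 0.05 in either line. In P2KO against P2WT 0.0437% of all tested genes were called (6 of 13734), and in P2H2KO against P2H2WT 0.0744% (10 of 13435). At an unadjusted p under 0.05 the count was 2 of 10 in the PHD2 line, Ccl9 and Ccl6, where 3.49% of all genes passed, and 0 of 10 in the PHD2/HIF2 line, where 2.63% passed. DESeq2 called 0 of 10 in both lines. Deficient and control libraries did not overlap for 1 of 10 genes in the PHD2 line, where this held for 2.25% of all genes, and for 0 of 10 in the PHD2/HIF2 line, where it held for 1.71%. The median log2 fold change of the 10 genes was -0.12 in P2KO, with 2 of 10 positive, beside a median of 0.02 and 57.8% positive over all genes. In P2H2KO the median was 0.03 with 6 of 10 positive. The intervals differ widely in what they leave room for. Those of Tnf, Ccl6 and Nfkbia stayed within 0.58 of 0 in both lines, while that of Cxcl2 in the PHD2 line reached -2.46.

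The difference of the log2 fold changes between the lines, P2KO effect minus P2H2KO effect, was tested over all 16 libraries. It called 0 of 10 genes, and 0% of the 14080 genes tested (0 genes, and 212 at an unadjusted p under 0.05). The largest differences were -1.14 for Cxcl2 (SE 0.841, 95% interval -2.93 to 0.65), 0.64 for Il1a (SE 0.483, -0.39 to 1.66) and -0.56 for Ccl9. Leaving out 1 library moved each by over 1.5 times in at least 1 case: Cxcl2 was -2.07 without P2KO replicate 5 and -0.45 without P2WT replicate 3, Il1a was 0.38 without P2H2KO replicate 15, and Ccl9 was -0.30 without P2H2KO replicate 15. At an unadjusted p under 0.05 there were 0 of 10, where 1.51% of all genes passed. The control groups of the lines were compared as a gauge, though line and deposited table cannot be told apart from any batch. In P2WT against P2H2WT 0 of 10 genes were called, beside 0.227% of all genes. Cxcl2 differed by 1.12 on the log2 scale (SE 0.591, unadjusted p 0.0767) and Il1b by -0.84 (SE 0.464, unadjusted p 0.0891). Without P2WT replicate 3 the value of Cxcl2 was 0.40, and without P2H2WT replicate 18 that of Il1b was -0.41. At an unadjusted p under 0.05 there were 0 of 10, where 10% of all genes passed.

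**Figure D5:**
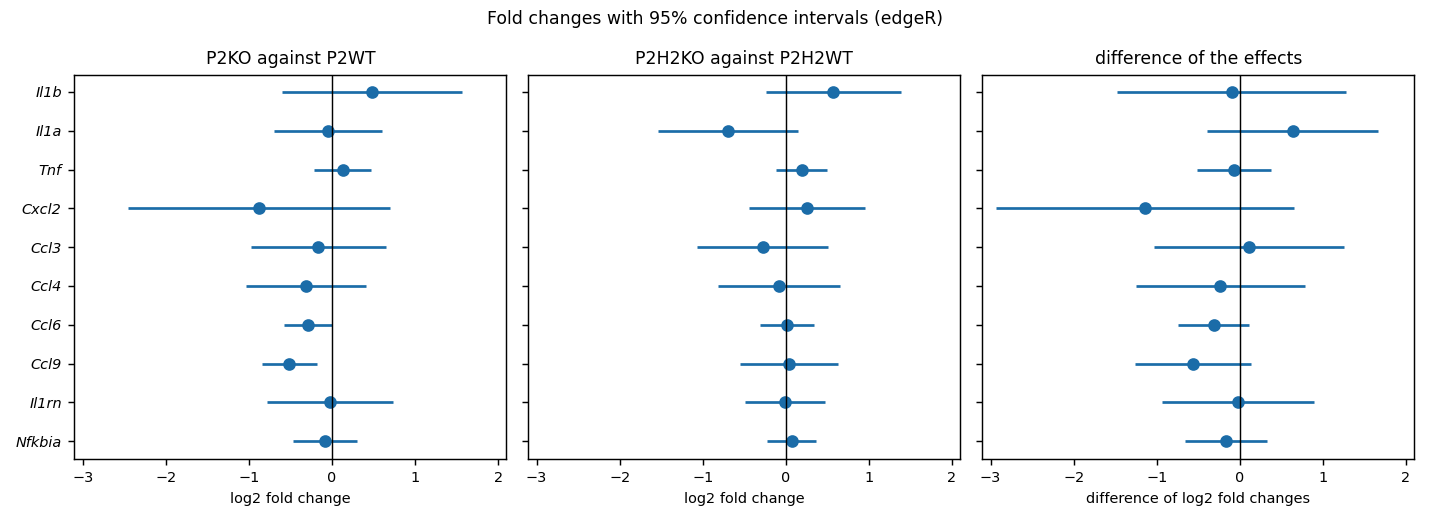
Log2 fold change of each gene in P2KO against P2WT, P2H2KO against P2H2WT, and their difference, with points at the edgeR estimate and lines for the 95% interval. Most intervals include 0, those of Ccl9 (-0.84 to -0.18) and Ccl6 (-0.58 to -0.0034) in the PHD2 line do not, and no adjusted p was under 0.05.

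The letter at the end of the titles was examined after the values had been seen, over all 16 libraries with the groups as covariates. P2KO and P2H2WT each held 3 m and 1 f libraries, and P2WT and P2H2KO each held 2 and 2. Ccl3 averaged 3.10 ± 0.778 CPM in the 10 m libraries (1.90 to 4.42, median 3.23) and 1.71 ± 0.412 CPM in the 6 f libraries (1.15 to 2.32, median 1.73). Every m library was above every f library in 3 of 4 groups, P2H2WT being the exception. The log2 difference was 0.90 (SE 0.190, 95% interval 0.49 to 1.31), with an unadjusted p of 0.000306 and an adjusted p of 0.0608 in edgeR, and an adjusted p of 0.00198 in DESeq2. So 0 of 10 genes were called by edgeR, beside 0.163% of all genes, and 1 of 10 by DESeq2. Without P2KO replicate 6 edgeR called 2 of the 10 genes, and without P2KO replicate 9 or P2H2WT replicate 13 it called 1. At an unadjusted p under 0.05 there were 4 of 10, where 17.5% of all genes passed: Ccl3, Cxcl2 (0.9965, SE 0.411) and Tnf (0.23, SE 0.09985) with higher values in m (9% of all genes), and Ccl6 (-0.28, SE 0.0838) with lower values (8.47%). The mean of Cxcl2 was higher and that of Ccl6 lower in the m libraries of 4 of 4 groups.

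Immediate-early genes, which cells transcribe within minutes of a stimulus or of handling, were examined beside these values. Of 15 tested, 10 had higher and 5 lower values in m, with log2 differences from -0.16 to 1.13. An unadjusted p under 0.05 was reached by 6, all higher in m, where 9% of all genes passed, and 0 were called. Jun had a log2 difference of 1.13 (adjusted p 0.0608), Fosb of 1.04, Fos of 0.59 and Zfp36 of 0.33 (adjusted p 0.0827). The summed level of the list was 861 to 1199 CPM in P2KO, 980 to 1248 in P2WT, 1145 to 1215 in P2H2KO and 1051 to 1322 in P2H2WT. Within groups that sum correlated with Tnf (r = 0.71), Cxcl2, Ccl3, Ccl4 and Il1b (r = 0.67 each) over the 16 libraries, and with Ccl6 and Ccl9 with r = -0.26 each. In the PHD2 and the PHD2/HIF2 line 0 of 15 immediate-early genes had an unadjusted p under 0.05. All 20 monocyte and macrophage genes had lower values in m, with a median of -0.13. The part of either list in the m and f values was not tested.

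Other cytokine and chemokine genes were taken from lists. Of 15 further cytokine genes tested in each line, 0 were called. Mif, which encodes macrophage migration inhibitory factor and is a known HIF target, was 39.0 ± 2.54 CPM in P2KO and 26.7 ± 2.88 in P2WT, and 43.2 ± 1.18 in P2H2KO and 28.3 ± 4.06 in P2H2WT (SD, n = 4). Every deficient library was above every control library in both lines, where groups did not overlap for 2.25% and 1.71% of all genes. Mif and Il18 were named for the smallest p-values of their list, a choice that favours such separation. The edgeR fit gave log2 fold changes for Mif of 0.56 (SE 0.0842, adjusted p 0.122) and 0.61 (SE 0.105, adjusted p 0.224). Il18, the gene of a cytokine related to interleukin-1, had log2 fold changes of -0.31 (SE 0.135, adjusted p 0.99999) and -0.72 (SE 0.135, adjusted p 0.320), without overlap in the PHD2/HIF2 line. The genes Il6, Csf2, Csf3, Il10 and Il12b, cytokines of activated myeloid cells, had at most 21 reads in any library.

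Among 13 further chemokine genes tested, 0 were called in either line. Those named below had the smallest p-values of the list, which favours separate groups. In the PHD2 line groups did not overlap for 2.25% of all genes. Ccl5, a chemokine gene of T and NK cells among others, had 7.95 ± 1.39 CPM in P2KO and 12.2 ± 1.53 in P2WT without overlap, a log2 fold change of -0.60 (SE 0.141, adjusted p 0.967). Cxcl9, the gene of an interferon-induced chemokine, had a log2 fold change of -0.67 there (SE 0.274, adjusted p 0.99999), also without overlap. In the PHD2/HIF2 line Pf4, a platelet chemokine gene, had a log2 fold change of 0.82 (SE 0.326, adjusted p 0.9999), and Cxcl10, the gene of a further interferon-induced chemokine, of -0.83 (SE 0.410, adjusted p 0.9999), both with overlapping groups. The differences between the lines were -0.69 for Ccl5 (SE 0.323, unadjusted p 0.0502) and -0.50 for Cxcl9 (SE 0.356, unadjusted p 0.182). The receptor genes of these ligands differed widely in level. Of 11 receptor genes tested, 0 were called by edgeR in either line. An unadjusted p under 0.05 was reached by 0 and 4 of them in the PHD2 and the PHD2/HIF2 line. Over all genes the shares were 3.49% and 2.63%. Those 4 were 3 higher and 1 lower, and log2 fold changes of the list in the PHD2/HIF2 line ran from -0.51 to 1.09. The smallest adjusted p of the list there (0.779, edgeR) belonged to a gene under 1 CPM, which the naming rule left out. Per kilobase Cxcr2 had 81.9 CPM, Tnfrsf1a 68.8, Tnfrsf1b 49.5 and Ccr1 40.4, as means over the 16 libraries. The signalling receptor gene Il1r1 had 1.41 CPM per kilobase and its partner Il1rap 2.38, both below Il1b, while Cxcr1 had 0.398 and Ackr2 0.0364. Il1r2, a decoy receptor for interleukin-1, had log2 fold changes of -0.48 in the PHD2 line (SE 0.362, unadjusted p 0.217) and of 0.24 in the PHD2/HIF2 line (SE 0.104, unadjusted p 0.0461), a difference of -0.73 in the fit of all libraries (SE 0.402, unadjusted p 0.0890). Ccr3, a receptor gene known from eosinophils, had -0.51 in the PHD2/HIF2 line (SE 0.215, unadjusted p 0.0404) and a difference between the lines of 0.38 (SE 0.306). Tnfrsf1b, which encodes a TNF receptor, had -0.22 in the PHD2 line (SE 0.102, unadjusted p 0.0617). Of 11 genes that process or release interleukin-1 or TNF, 0 had an unadjusted p under 0.05 in either line. Nlrp3, the gene of an inflammasome sensor, had log2 fold changes of -0.27 (SE 0.214) and 0.21 (SE 0.175).

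For each gene with a mean of at least 1 CPM, the 3 protein-coding genes of at least 5 CPM with the most similar within-group pattern over the 16 libraries were listed. Il1rn was followed most closely, by Ifit1bl2 (r = 0.99), Max (0.98) and Ankrd22 (0.98). Ccl9 was closest to Lmf1 (0.97), Ifngr1 (0.94) and Galnt11 (0.94), and Ccl6 to Use1, Dnajb9 and Cd300a (0.94 each). Ccl3 was closest to Cdk12 (0.92), Ccnl2 (0.92) and Ccnl1 (0.91), and Nfkbia to Tsc22d3 (0.92), Zfp456 (0.91) and Cxcr4 (0.89). Il1b was closest to Pgs1, Ghdc and Parp6 (0.91 each), Tnf to Plk3, Dusp6 and Zfp51 (0.87, 0.87 and 0.85), and Cxcl2 to Wdr44 (0.76). These correlations share libraries and depth, and the closest of all such genes were taken, so they are descriptions.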

How the data were processed

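RNA was measured in 16 libraries, 4 in each of 4 groups, with group names from titles and descriptions. Raw counts per gene were deposited by the authors as 2 tables, 1 per line, with 49585 identifiers and 8 libraries each, per the file headers. HTSeq and the mm10 genome are named in the submitters' processing notes, and the aligner, annotation and strand setting are not given in the sources used here. Library preparation followed Illumina methods, per the labels.

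Each line was tested on its own table with edgeR 4.0.16 (R 4.3.3): filterByExpr, TMM scaling, quasi-likelihood fit with robust dispersion, and Benjamini-Hochberg adjustment over all genes tested, with a gene called at an adjusted p under 0.05. The difference between the lines, the controls and the title letters were tested in fits of all 16 libraries. The fit was tested on simulated counts. CPM used TMM-scaled library sizes over all 16 libraries, and correlations used log2(CPM + 1) less the group mean. DESeq2 1.42.0, other scalings, filters, covariates and single-library omissions were alternatives. Totals of 23450746 to 28601284 counts set the counting error, which intervals from the fit include.

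Symbols and exon lengths came from GENCODE M21 (GRCm38), which matched 49326 identifiers. Similar sequences were found among its transcripts with blastn 2.17.0. Promoters came from RefSeq (GRCm38.p6). The 10 genes and the gene lists were chosen with earlier results of these data known, and 2 genes of the lists are not reported here. A rule marked, in each list and comparison, the 2 genes of at least 1 CPM with the smallest unadjusted p. In the lists of other cytokines, chemokines and receptors those of each line are all named, and from the remaining lists and comparisons a part of them. Rela, Tnfaip3, the genes with few reads, the receptor levels and the immediate-early genes of the title letters were picked after their values were seen.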

Additional observations from a re-analysis of the deposited data

Results flagged for a closer look

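In 40 sets of 4 libraries (each of the 10 genes in each group), 2 held a library far from the rest of its group, and chance alone gives about 1 in 20. Cxcl2 was 3.56 CPM in P2KO replicate 5, against 0.422 to 0.957 CPM in the other 3 libraries. Ccl9 was 218 CPM in P2H2KO replicate 15, against 113 to 127 CPM in the other 3 libraries, and the same library had the highest monocyte and macrophage sum of all 16, 4618 CPM.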

How the results depend on the processing

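The count of the 10 genes called stayed at 0 in P2KO against P2WT, P2H2KO against P2H2WT, their difference and P2WT against P2H2WT, under every alternative run: DESeq2, RLE size factors, no filter on low counts, a stricter one (10 or more counts throughout), the title letter as a covariate, another set of libraries in the fit, and leaving out each library. With the title letters compared, the count was 1 with no filter, 1 with DESeq2 and 0 to 2 without 1 library. Over all genes DESeq2 called 22 in the PHD2 line and 39 in the PHD2/HIF2 line. No paired analysis was possible because the groups share no replicate numbers.

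Of 906 log2 fold changes recomputed for single genes, 836 kept direction and call, 64 turned in sign, and 6 came past the threshold, all in the comparison of the title letters. With the title letter as a covariate, the values in the PHD2/HIF2 line were -0.071 for Ccl6, -0.094 for Ccl9 and -0.032 for Nfkbia, the differences between the lines -0.27 for Ccl3 and 0.027 for Il1rn, and that of Ccl4 between the controls 0.048. With the stricter filter, Ccl4 between the controls was 0.000646, and Il1a was not tested except in the PHD2 line. Leaving out each library gave, in the PHD2 line, Il1a -0.16 to 0.16, Ccl3 -0.46 to 0.058, Il1rn -0.44 to 0.21, Nfkbia -0.27 to 0.022. In the PHD2/HIF2 line it gave Cxcl2 -0.066 to 0.44, Ccl4 -0.29 to 0.13, Ccl6 -0.078 to 0.12, Ccl9 -0.22 to 0.19, Il1rn -0.23 to 0.13, Nfkbia -0.014 to 0.18. For the difference between the lines it gave Il1b -0.58 to 0.23, Tnf -0.17 to 0.026, Ccl3 -0.19 to 0.35, Il1rn -0.44 to 0.20, for the controls Ccl3 -0.38 to 0.088, Ccl4 -0.22 to 0.21, Ccl9 -0.26 to 0.066, and for the title letters Il1b -0.17 to 0.39, Il1a -0.024 to 0.32, Il1rn -0.29 to 0.077. The cause was not tested. Ccl9 in the PHD2 line stayed between -0.61 and -0.39 without 1 library, with unadjusted p-values of 0.00341 to 0.0183 in edgeR. Over all alternatives, DESeq2 included, its unadjusted p was 0.00137 to 0.0394 and its smallest adjusted p 0.406. Il1a, Ccl4 and Cxcl2 had as few as 7, 14 and 11 reads in a library, so counting error is largest for them.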
